A study of Mus musculus with 4 samples.

Results

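Long noncoding RNAs (lncRNAs) are transcripts without a known long reading frame, and several of them are among the abundant RNAs of the adult brain. 10 of them were selected by symbol: Malat1, Neat1, Meg3, Rian, Mirg, Miat, Snhg11, Gas5, Peg13 and Kcnq1ot1. Of these, 8 genes were carried on the arrays under their symbols, by 16 probes, among 24185 gene symbols in the array annotation. No spot carried the symbol Rian or Miat, so these genes were not analysed here under their names. The samples came from RNA immunoprecipitation (RIP), in which an antibody recovers a protein together with the RNA bound to it. Corticohippocampal lysate of male C57BL/6 mice aged 8 weeks was incubated for 3 h with beads carrying CPEB2 IgG, which binds the translational regulator CPEB2, or control IgG, in 2 experiments with 1 array per antibody each. The labels give no genetic change and no drug for either group. Titles and treatment name CPEB2 for these samples, while a description field reads CPEB3 IgG.

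CPEB2 belongs to the cytoplasmic polyadenylation element binding proteins, which bind a U-rich element (CPE) in the 3′ end of mRNAs and regulate their translation in the cytoplasm. Malat1 is held in nuclear speckles and Neat1 builds nuclear paraspeckles. Kcnq1ot1 is an imprinted transcript that silences neighbouring genes in cis, and Meg3, Rian and Mirg are expressed from the maternal Dlk1-Dio3 domain, where Rian hosts small nucleolar RNAs (snoRNAs) and Mirg hosts microRNAs. Miat is a nuclear-retained neuronal transcript. Gas5 is a spliced snoRNA host whose mature form is exported and associates with ribosomes. Snhg11 is a neuronal snoRNA host, and Peg13 is an imprinted transcript that lies within an intron of Trappc9. Malat1, Neat1, Kcnq1ot1, Meg3, Mirg, Rian and Miat were classed as nuclear-retained and Gas5 as cytoplasmic from such general knowledge, and Snhg11 and Peg13 were left without a class. Localisation was not measured in these samples.

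The RNA was read by 60-base probes, and one probe of each gene is shown because the results below are values of these sequences. The probes read in the direction of the transcript: all 5 overlapping pairs of probes at Malat1 and Neat1 shared their letters in that direction. Capitals mark the CPE letters TTTTAT or TTTTAAT, which were searched on the transcript strand only. Positions follow the array annotation, which uses mm9.
Malat1, chr19:5795713-5795772, minus strand: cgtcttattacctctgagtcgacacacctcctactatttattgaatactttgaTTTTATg
Neat1, chr19:5842564-5842623, minus strand: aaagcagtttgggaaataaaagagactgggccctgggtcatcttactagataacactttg
Kcnq1ot1, chr7:150440140-150440199, minus strand: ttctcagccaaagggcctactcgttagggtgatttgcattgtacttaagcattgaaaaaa
Meg3, chr12:110799558-110799617, plus strand: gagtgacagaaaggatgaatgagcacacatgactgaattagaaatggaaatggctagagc
Mirg, chr12:110968992-110969051, plus strand: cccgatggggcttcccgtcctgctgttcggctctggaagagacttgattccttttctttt
Gas5, chr1:162968608-162968667, plus strand: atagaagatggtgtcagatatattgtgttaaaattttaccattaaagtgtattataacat
Snhg11, chr2:158211554-158211613, plus strand: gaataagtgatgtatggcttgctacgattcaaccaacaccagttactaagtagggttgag
Peg13, chr15:72636072-72636131, minus strand: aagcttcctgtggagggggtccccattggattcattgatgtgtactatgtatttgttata
The CPE letters were present in 1 of the 16 lncRNA probes, that of Malat1, and in 4.54% of all probes tested. The probes tested that held these letters had a median log2 fold change of CPEB2 IgG over control IgG of 0.35, those without them one of −0.22, and that of the Malat1 probe was −0.32. The letters hold no G or C. All 7733 tested probes with 35% G and C bases (GC), the content of the Malat1 probe, had a median of 0.34. Those with 55% GC had one of −0.52. The part of base composition in the difference between probes with and without the letters was not tested. Each probe covers only 60 bases, so the rest of the transcripts was not searched.

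None of the 16 lncRNA probes passed the test of a difference between CPEB2 IgG and control IgG. With limma at an adjusted p under 0.05, 0 of 16 probes were higher, against 12.7% of all probes tested, and 0 of 16 were lower, against 14.8% of all probes tested. At an unadjusted p under 0.05, the count was also 0 of 16, against 41.3% of all probes. The log2 fold changes of CPEB2 IgG over control IgG ranged from −0.59 to 0.28 with a median of −0.09, and those of all 41134 probes tested had a median of −0.20 and quartiles of −0.76 and 0.42. All 16 lncRNA probes lay between those quartiles. All 16 were well above background on all 4 arrays, and none was saturated. By contrast, the Cpeb2 mRNA itself gave processed signals of 2410 and 1877 with CPEB2 IgG and of 299 and 297.0 with control IgG, a log2 fold change of 2.89 ± 0.29 (SD, n = 2 experiments, limma adjusted p = 0.00679).

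**Figure D1:**
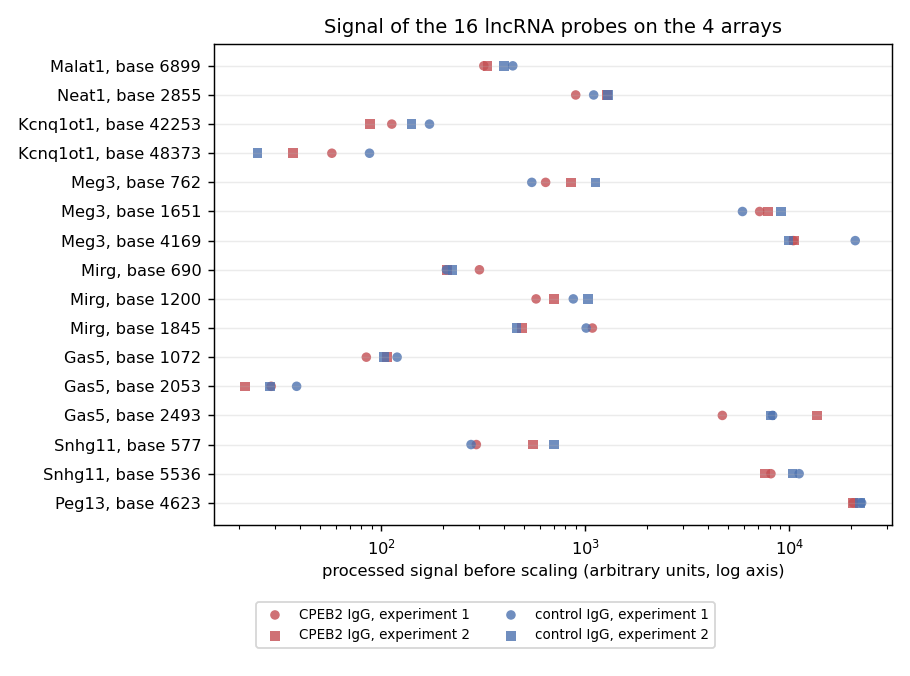
Processed signal of each lncRNA probe on each array before scaling between arrays, on a log axis in arbitrary units. Rows are probes named by gene and by the transcript base at which the probe starts, red stands for CPEB2 IgG, blue for control IgG, circles for experiment 1 and squares for experiment 2. Red and blue points of a row lie close together for most probes, as at Peg13 (20539 to 22622), and the red points of the Gas5 probe at base 2493 (4698 and 13691) lie on either side of the blue ones.

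The precision of these values was that of 2 experiments. The upper end of the 95% interval (limma, not adjusted for the number of probes) was under a log2 fold change of 1, that is under a 2-fold higher scaled signal, for 14 of 16 probes, and under a 1.5-fold higher one for 7 of 16. Each array received the same amount of RNA, signals were scaled within arrays, and no array read the input lysate. The values are thus relative to the other RNA of each precipitate, and the amount recovered by each antibody was not measured. A smaller difference can lie within these intervals, and the smallest detectable difference was not computed. The 2 experiments gave the same sign for 7 of 16 lncRNA probes, 6 below 0 and 1 above, whereas 74.7% of all probes tested had the same sign in both. Both CPEB2 IgG values lay below both control IgG values for 5 of 16 lncRNA probes, against 39.2% of all probes tested, and above them for 0 of 16, against 26.4%.

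**Figure D2:**
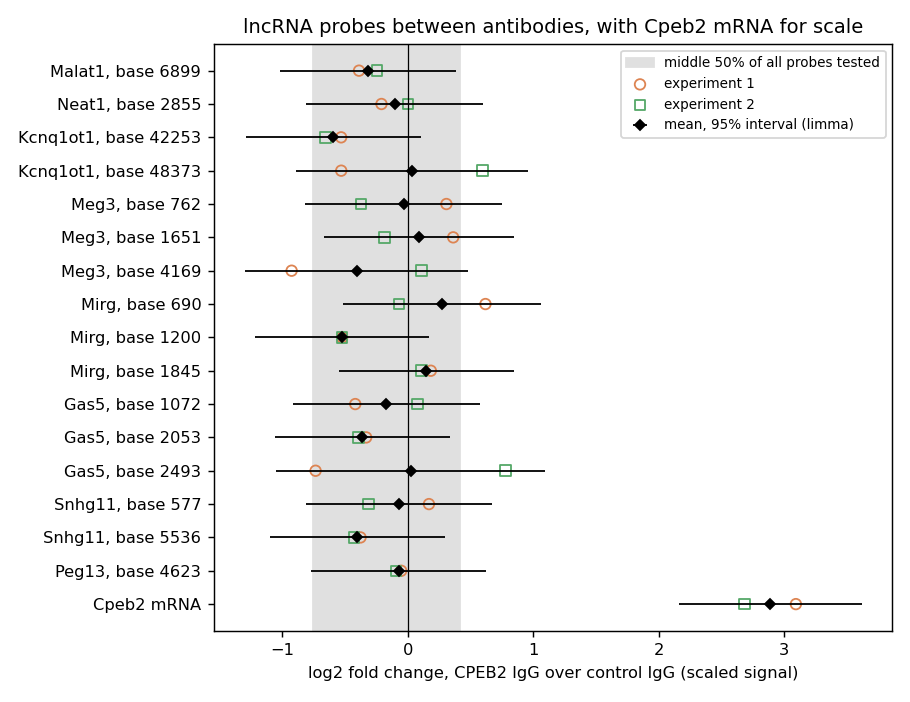
Log2 fold change of CPEB2 IgG over control IgG for the 16 lncRNA probes and for Cpeb2 mRNA. Open circles and squares are the 2 experiments, diamonds are their mean with the 95% interval of the limma fit, and the grey band spans the quartiles of all probes tested (−0.76 to 0.42). Every interval of an lncRNA probe crosses 0, and that of Cpeb2 runs from 2.16 to 3.62.

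Among the nuclear-retained RNAs, Malat1 is the speckle transcript that binds splicing factors. Its probe near the 3′ end of the transcript record, which starts at base 6899, gave processed signals of 318 and 332 with CPEB2 IgG and of 441 and 401 with control IgG in experiments 1 and 2. Other probes of its strand, described below, were far brighter near the start of the record, up to 429114. Whether the dim probe at base 6899 reads the mature transcript was not tested. Both CPEB2 IgG arrays were below both control IgG arrays, and the log2 fold change was −0.32 ± 0.10 (SD, n = 2, limma adjusted p = 0.446), with a 95% interval from −1.02 to 0.38. This call depended on the setting. When probes were centred within 12 ranges of GC content, Malat1 was lower with CPEB2 IgG (log2 fold change −0.98, limma adjusted p = 0.0472), as 1 of the 16 probes, against 13.1% of all probes lower in that setting. The probes of the same strand described below were not called in that setting, at log2 fold changes from −0.99 to 0.13. Their lowest limma adjusted p was 0.0571, close to that of the Malat1 probe. A range can hold probes of several GC contents. Relative to the median of tested probes with its own GC content, the Malat1 probe stood at −0.66.

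Neat1, the paraspeckle RNA, gave processed signals of 898 and 1276 with CPEB2 IgG and of 1099 and 1295 with control IgG at its probe at base 2855. All probes of its strand used here lie within the first 2914 bases of the transcript record, so forms of Neat1 were not told apart. The second experiment showed no difference, and the mean log2 fold change was −0.10 ± 0.15 (SD, n = 2, limma adjusted p = 0.815).

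Kcnq1ot1, the silencing transcript of the imprinted Kcnq1 domain, was read by a pair of dim probes. The one at base 42253 gave 113 and 87.9 with CPEB2 IgG against 172 and 141 with control IgG, so that both CPEB2 IgG values were lower. The log2 fold change of −0.59 ± 0.09 (SD, n = 2) was the lowest of the 16 and did not pass the test (limma adjusted p = 0.173). The one at base 48373 gave 57.3 and 36.9 with CPEB2 IgG against 87.6 and 24.8 with control IgG, and the experiments went opposite ways, at −0.53 and 0.60 on the log2 scale.

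Meg3 is a maternally expressed transcript of the Dlk1-Dio3 domain with many spliced forms. Its probe at base 4169 gave processed signals of 10461 and 10533 with CPEB2 IgG and of 21051 and 9921 with control IgG, so the control arrays differed from each other by more than the antibodies did in experiment 2. The log2 fold changes were −0.93 and 0.11, with a mean of −0.41 (limma adjusted p = 0.441). The probe at base 1651 gave 7156 and 7869 with CPEB2 IgG against 5896 and 9094 with control IgG, with log2 fold changes of 0.36 and −0.19. The probe at base 762 gave 639 and 852 against 547 and 1121, with log2 fold changes of 0.31 and −0.37. Thus all 3 Meg3 probes changed sign between experiments, and the one at base 4169 did so in the direction opposite to the other 2.

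Mirg, a microRNA host of the same domain, held both the highest lncRNA estimate and one of the lower ones. Its probe at base 690 gave processed signals of 303 and 209 with CPEB2 IgG and of 209 and 223 with control IgG, a log2 fold change of 0.28 ± 0.49 (SD, n = 2, limma adjusted p = 0.559) that came from experiment 1. The probe at base 1200 gave 574 and 705 with CPEB2 IgG against 874 and 1029 with control IgG. The change was −0.52 on the log2 scale in both experiments and did not pass the test (limma adjusted p = 0.218). The probe at base 1845 gave 1084 and 488 against 1010 and 460, so both antibodies fell together between experiments and the log2 fold change was 0.15 ± 0.05 (SD, n = 2). The 3 probes were annotated to 3 different transcript records and spanned 0.80 on the log2 scale.

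Gas5, the cytoplasmic member, is a 5′ TOP transcript whose introns release snoRNAs. Its probe at base 2493, the one printed above, gave processed signals of 4698 and 13691 with CPEB2 IgG and of 8282 and 8101 with control IgG. The control arrays nearly coincided while the CPEB2 IgG arrays fell on either side of them, with log2 fold changes of −0.73 and 0.78 and a mean of 0.02 (limma adjusted p = 0.975). The probe at base 1072 gave 84.5 and 107 against 120 and 103, and that at base 2053 gave 28.9 and 21.4 against 38.5 and 28.6. Their log2 fold changes were −0.17 ± 0.35 and −0.36 ± 0.04 (SD, n = 2). These 2 dim probes lie 981 bases apart both in the genome and in the transcript record, so no intron separates them, whereas the probe at base 2493 is separated from that at base 2053 by 1258 bases in the genome and 440 in the record.

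Snhg11 and Peg13 were set in no class. The Snhg11 probe at base 5536 gave processed signals of 8129 and 7591 with CPEB2 IgG and of 11178 and 10378 with control IgG, and the groups did not overlap. The log2 fold change was −0.40 ± 0.04 (SD, n = 2, limma adjusted p = 0.333). The probe at base 577 gave 292 and 556 against 276 and 702, so experiment 2 was higher with either antibody and the log2 fold change was −0.07 ± 0.34. Peg13, the imprinted transcript within Trappc9, gave 20600 and 20539 with CPEB2 IgG against 22622 and 22258 with control IgG. On the log2 scale the change of −0.07 ± 0.03 (SD, n = 2, limma adjusted p = 0.871) had the smallest spread between experiments after that of the Mirg probe at base 1200.

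Setting the nuclear-retained RNAs against the cytoplasmic one gave an order that differed between the experiments. The median log2 fold change was −0.07 over the 10 nuclear-retained probes of 5 genes, −0.17 over the 3 Gas5 probes and −0.20 over all probes tested. In experiment 1 the medians were −0.30 for the nuclear-retained probes and −0.42 for Gas5, and in experiment 2 they were −0.13 and 0.08. The difference of nuclear-retained minus Gas5 was thus 0.12 in experiment 1 and −0.20 in experiment 2. The Gas5 median was each time the value of the dim probe at base 1072, while the bright probe at base 2493 had a mean of 0.02. Whether the dim probes read the spliced, exported form of Gas5 was not tested. With 1 cytoplasmic gene and 2 experiments, the difference was not tested. Thresholds on the fold change and the raw signal, as used in the study, were also applied. Here they were read as a mean fold change above 1.5 over the 2 experiments and a raw signal over 1000 on at least 1 CPEB2 IgG array, which is a choice made for this comparison. A raw signal above 1000 was reached by 6 of 8 lncRNA genes, Gas5, Meg3, Mirg, Neat1, Peg13 and Snhg11, and 0 of these 6 passed the fold threshold, against 47.7% of all genes with such a signal. Only probes under a gene symbol were counted. Malat1 entered with its dim probe at base 6899 (318 to 441), while uncounted probes of its strand, described below, reached 429114. In experiment 2 alone Gas5 would have passed, through the probe at base 2493, and Meg3 passed when probes were centred within GC bins.

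The arrays also carried probes of the same transcripts that the array annotation lists under another name or under none. They were chosen by position after the values were seen. Malat1, Neat1 and Kcnq1ot1 are known as transcripts that can run unspliced, and the transcript base of their probes places the start of each record at 5802670 on chromosome 19, 5845477 on chromosome 19 and 150482451 on chromosome 7. Both Kcnq1ot1 probes gave the same start. Within the 6958 bases of the Malat1 span there were 10 further probes of the same strand, of which 3 are named NEAT2, an older name of Malat1, and 7 have no symbol. Their log2 fold changes ranged from −0.32 to −0.05 with a median of −0.27, and 0 of 10 passed the test, against 14.8% of all probes lower. One of them has the sequence of the Malat1 probe and gave −0.32, as that probe did. Of the probes near the start of the Malat1 record, that 482 bases from it gave processed signals of 317289 and 291896 with CPEB2 IgG and of 429114 and 343129 with control IgG, a log2 fold change of −0.28 (limma unadjusted p = 0.356). The mean of both experiments was thus slightly below 0 at all 11 probes, within the error of each, where all probes tested had a median of −0.20. In experiment 2, those 345, 421 and 4139 bases from the start were above 0 (0.11, 0.26 and 0.13). The probes lay 345 to 482, 4051 to 4356 and 6779 to 6899 bases from the start, and some overlap. Signals of the further probes ran from 293, at 6860 bases, to 429114, at 482 bases. When centred within GC bins, the 10 further probes ranged from −0.99 to 0.13, and 0 of 10 passed the test (lowest limma adjusted p 0.0571).

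The 5 further probes of the Neat1 strand, named NEAT1 in capitals, had log2 fold changes from −0.14 to 0.02. Of these, 0 of 5 passed the test, against 27.5% of all probes tested that were higher or lower. On the opposite strand, 11 probes without a symbol ranged from −0.98 to 0.74 with a median of −0.45, and 0 of 11 passed (lowest limma adjusted p 0.0551). At Kcnq1ot1, the 5 probes named KCNQ1ot1 lie on the strand opposite to the 2 Kcnq1ot1 probes, 54 to 587 bases from the record's start. Of these, 3 were bright enough to be tested, with log2 fold changes of −0.83, −0.48 and −0.06, and 0 of 3 passed the test (lowest limma adjusted p 0.0887). At Malat1, 3 probes of the opposite strand gave −0.10, −0.03 and −0.01.

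**Figure D3:**
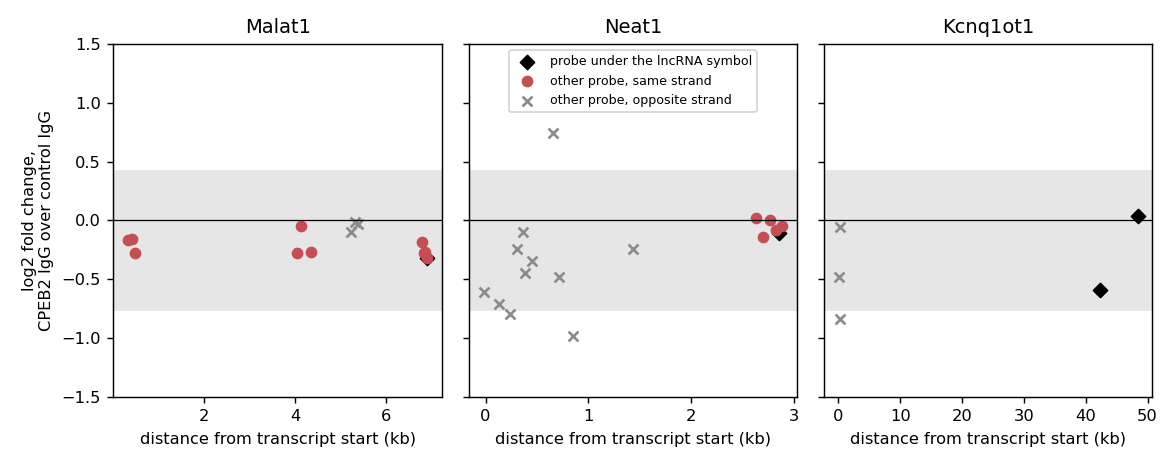
Log2 fold change of CPEB2 IgG over control IgG against the distance in kb from the start of the Malat1, Neat1 and Kcnq1ot1 records. Black diamonds are probes under the lncRNA symbol, red circles other probes of the same strand, grey crosses probes of the opposite strand, and the grey band spans the quartiles of all probes tested. Same-strand probes of Malat1 and Neat1 lie in a narrow range, from −0.32 to 0.02.

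Meg3 and Mirg lie on the plus strand of chromosome 12, and their probes bound an interval of 204.9 kb. In the RefSeq order of genes (GRCm38.p6), 74 entries stand between the 2 genes, of which 50 are microRNAs, 19 snoRNAs and 2 lncRNAs, Rian and 6430411K18Rik. The arrays held 42 other plus-strand probes in the interval, of which 37 were tested. With CPEB2 IgG 2 of 37 were higher and 1 lower, against 12.7% and 14.8% of all probes tested. The 2 that rose belong to 1 locus without a symbol, and their sequences are shown because they were the only probes in the interval that rose:
Locus probe 1, chr12:110896272-110896331, plus strand: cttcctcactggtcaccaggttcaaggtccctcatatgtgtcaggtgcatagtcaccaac
Locus probe 2, chr12:110897958-110898017, plus strand: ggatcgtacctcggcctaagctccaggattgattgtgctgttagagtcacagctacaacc
The first gave processed signals of 16796 and 25924 with CPEB2 IgG and of 2815 and 3529 with control IgG, a log2 fold change of 2.78 ± 0.17 (SD, n = 2, limma adjusted p = 0.00679). The second gave 22719 and 40076 against 4578 and 5640, a log2 fold change of 2.62 ± 0.32 (SD, n = 2, limma adjusted p = 0.00697). Both lie between the Meg3 and the Mirg probes, 113.5 and 115.2 kb from the first Meg3 probe, hold no CPE letters and have a GC content of 51.7%, at which the median of all probes tested was −0.47. Whether they lie in Rian, which the RefSeq order places in this interval, was not tested, since no genome of the mm9 build was used here. They were therefore assigned to no gene and were not counted among the nuclear-retained probes, and they were singled out after their values were seen.

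**Figure D4:**
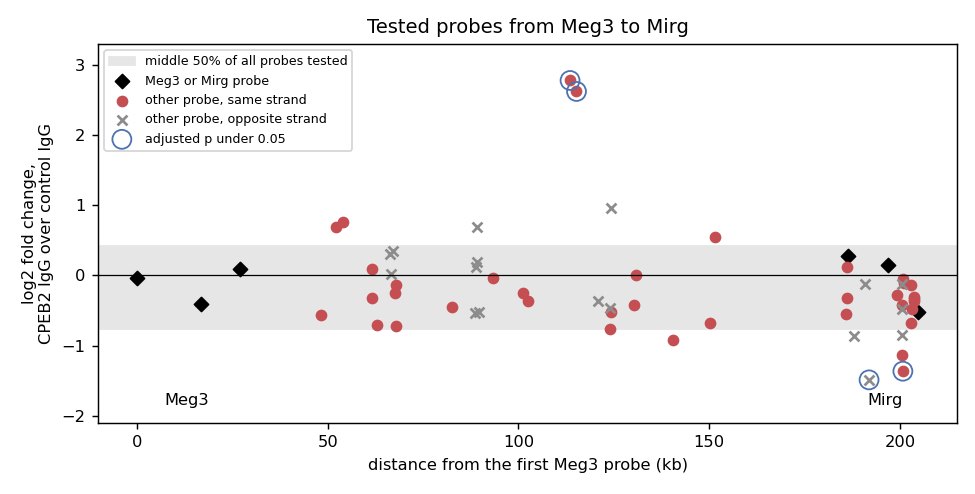
Log2 fold change of CPEB2 IgG over control IgG for every tested probe between the first Meg3 and the last Mirg probe, against the distance from the first Meg3 probe in kb. Black diamonds are Meg3 and Mirg probes, red circles other plus-strand probes, grey crosses minus-strand probes, blue rings mark an adjusted p under 0.05, and the grey band spans the quartiles of all probes tested. A pair of plus-strand probes near 114 kb stands at 2.62 and 2.78, and no Meg3 or Mirg probe exceeds 0.28.

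In the same interval, a plus-strand probe (−1.36 ± 0.27, limma adjusted p = 0.0238) and a minus-strand probe (−1.49 ± 0.65, limma adjusted p = 0.0293), both without a symbol and both between the first and the last Mirg probe, fell with CPEB2 IgG (SD, n = 2). 17 minus-strand probes were tested there, and this 1 was the only one past the threshold, against 14.8% of all probes tested that were lower. The probe of 6430411K18Rik gave a log2 fold change of −0.57, and the 2 probes of 1110006E14Rik gave 0.69 and 0.76, without passing the test.

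Other noncoding RNAs and the coding neighbours of the lncRNAs were described for comparison, from lists drawn up from general knowledge. The counts below stand beside 12.7% of all probes tested that were higher and 14.8% that were lower. Of 10 tested genes that are other snoRNA hosts or 5′ TOP lncRNAs, the class to which Gas5 belongs, 1 rose and none fell, with a median log2 fold change of −0.31 over 10 probes. The one that rose was Snhg6, with signals of 27896 and 48497 against 10480 and 9371 (log2 fold change 1.95 ± 0.64, SD, n = 2, limma adjusted p = 0.0142). Of 13 tested genes that are other named lncRNAs of brain or imprinting, 2 rose, at 4 of 23 probes, and none fell. The median was −0.18 over the 23 probes. Tug1, a broadly expressed lncRNA, was higher at 3 of 3 probes (1.29, 1.36 and 1.59, limma adjusted p from 0.0180 to 0.0313), and Mir22hg, the host of a microRNA, at its probe by 1.22 (limma adjusted p = 0.0321). Of 2 short noncoding RNAs tested, Rmrp, the RNA of the RNase MRP complex, fell by 1.82 on the log2 scale (limma adjusted p = 0.0108).

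Of the protein-coding genes at the lncRNA loci, 5 were tested at 7 probes, 2 fell and none rose. The 2 genes fell at 3 of the 7 probes, against 14.8% of all probes tested. Trappc9, the gene around Peg13, encodes a subunit of a vesicle trafficking complex. Its signals were 2477 and 2006 with CPEB2 IgG against 7831 and 8153 with control IgG at one probe, and it fell at both probes, with log2 fold changes of −1.79 and −2.36 (limma adjusted p = 0.0124 and 0.00868). Cdkn1c, a cell cycle inhibitor silenced in cis by Kcnq1ot1, fell by 1.82 (limma adjusted p = 0.0115). Peg13 and Kcnq1ot1 themselves did not pass the test, and the difference from these neighbours was not tested.

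Probe base composition moved with the values. Over all probes tested, the median log2 fold change was 0.34 among 7733 probes with 35% GC and −0.52 among 3882 probes with 55% GC. The 16 lncRNA probes ranged from 23.3% to 55% GC, and 8 of 16 lay below the median of probes of their own GC content, with a median difference of 0.01. Among those below were the Gas5 probe at base 2493 and Malat1. The Gas5 probe was at 0.02, the mean of −0.73 and 0.78, where 59 probes with 23.3% GC had a median of 1.29. Malat1 was at −0.32 against 0.34. Among those above were the Mirg probe at base 690, at 0.28 against −0.47, and the Meg3 probe at base 1651, at 0.09 against −0.52. The part of base composition in these differences was not tested.

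**Figure D5:**
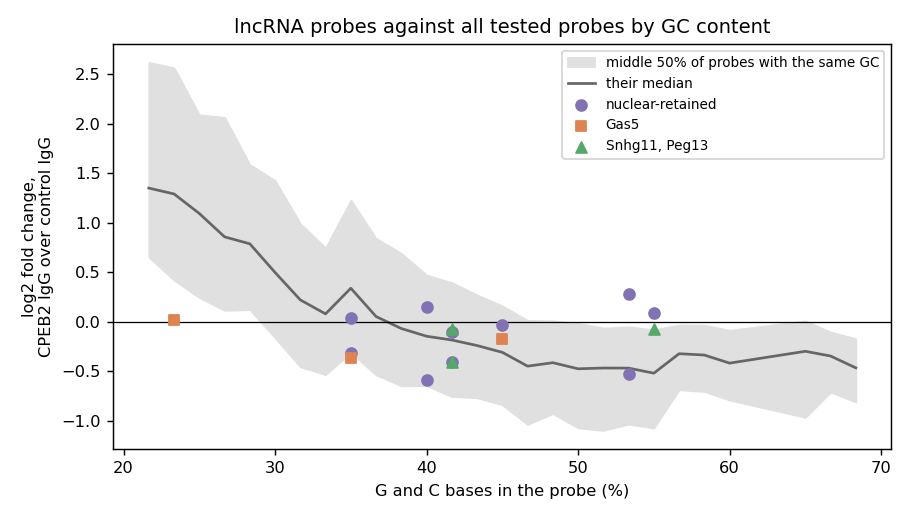
Log2 fold change of CPEB2 IgG over control IgG against the percentage of G and C bases in the probe. The line and grey band are the median and quartiles of all tested probes with the same GC content (contents with at least 50 probes), and symbols are the lncRNA probes by class. The median falls from 1.29 at 23.3% GC to −0.52 at 55% GC, and the lncRNA probes range from −0.59 to 0.28. The Gas5 probe at 23.3% GC is the mean of opposite values in the experiments, −0.73 and 0.78.

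The arrays were of similar quality. Between 68.4% and 74.1% of spots were well above background, and 41134 of 55681 probes were tested. Among the 22 cell type markers of cortex and hippocampus, 22 were well above background on all arrays at their brightest probe. Among glial markers Slc1a3 was higher with CPEB2 IgG, and Aldh1l1, Aif1 and Csf1r were lower. Of 3 markers of other tissues, Alb was not well above background, Myh6 reached a signal of 79.0 and Ins2 one of 482. Myh6 and Ins2 were well above background on all 4 arrays. The Malat1 probe at base 6899, both Kcnq1ot1 probes, Gas5 at bases 1072 and 2053 and Mirg at base 690 never exceeded the highest Ins2 signal. For these probes, a signal above background does not by itself show that the lncRNA was read. The lysate mixed neurons and glia, so RNA bound in different cell types cannot be told apart.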

How the data were processed

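RNA recovered with CPEB2 IgG or control IgG (0.2 µg per array, Cy3) was hybridised to 4 Agilent one-colour arrays, 2 per antibody, which lay on 1 slide with the antibodies at separate positions, so position and antibody cannot be told apart. The authors deposited spot intensities of Feature Extraction 10.5.1.1, which are background-subtracted and not normalized between arrays. Control spots and outlier spots were left out, as were 66 probes lacking a value. The log2 signals were taken relative to the 75th percentile of their array, probes well above background on at least 2 arrays were fitted with limma 3.58.1 (R 4.3.3) with the experiment as a block, and p-values were adjusted by Benjamini-Hochberg over all 41134 probes at a threshold of 0.05. The fit leaves 1 residual degree of freedom and was tested on simulated data. An exact permutation test over 4 arrays that ignores the pairing cannot go below 0.333. With swaps only within experiments, the floor is higher.

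The methods divide each lysate between the antibodies, and a supplementary file pairs the CPEB2 IgG and control IgG arrays by number, which is the source of the block (correlation of deviations 0.206). All lncRNA probes were named, and of each comparison list the 3 genes at most with the largest changes past the threshold in each direction. The members and lists were chosen with earlier results of these data known. Alternatives covered scaling, background correction, filters, probe choice, GC content, the block and single arrays. Python 3.11.15, numpy 2.4.6, pandas 2.3.3 and matplotlib 3.10.9 were used. The result of 1 cell type marker is not reported here.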

Additional observations from a re-analysis of the deposited data

How the results depend on the processing

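Of 208 alternative estimates for the 16 lncRNA probes that kept all arrays, 183 kept their sign and 1 passed the threshold, Malat1 with centring within GC bins (1 probe lower in place of 0). 25 changed sign, all of them uncalled. With GC centring these were Gas5 at base 1072 (0.14) and base 2493 (−0.64), Kcnq1ot1 at base 48373 (−0.63), Meg3 at base 762 (0.28), Mirg at base 1200 (0.011), Neat1 (0.10), Peg13 (0.13) and Snhg11 at base 577 (0.43). With median centring they were Gas5 at base 1072 (0.057), Meg3 at base 762 (0.20), Neat1 (0.12), Peg13 (0.15) and Snhg11 at base 577 (0.16). With quantile normalization they were Gas5 at base 1072 (0.016) and Peg13 (0.25), and with spike-in scaling Meg3 at base 762 (0.059), Peg13 (0.019) and Snhg11 at base 577 (0.019). Without scaling they were Gas5 at base 2493 (−0.030) and Kcnq1ot1 at base 48373 (−0.020), with the percentile over probes above background on all arrays Gas5 at base 2493 (−0.085), Kcnq1ot1 at base 48373 (−0.074) and Meg3 at base 1651 (−0.019), with normexp Kcnq1ot1 at base 48373 (−0.070), and with the mean of a gene's probes Gas5 (−0.17). Quantile normalization, median centring, normexp and GC centring moved the median of all probes by 0.16, 0.23, 0.13 and 0.16, and the percentile over other probes by −0.11. The cause of these changes was not tested.

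Of 96 estimates with fewer arrays, 23 changed sign, 14 where 1 array and the replicate block were left out together and 9 where 1 experiment was left out. The ranges were, for Gas5, −0.42 to 0.078 (base 1072) and −0.75 to 0.79 (base 2493), for Kcnq1ot1 −0.85 to 0.91 (base 48373), for Meg3 −0.58 to 0.52 (base 762), −0.93 to 0.11 (base 4169) and −0.25 to 0.43 (base 1651), for Mirg −0.068 to 0.62 (base 690) and −0.43 to 0.72 (base 1845), for Neat1 −0.36 to 0.15 and for Snhg11 −0.78 to 0.63 (base 577). No lncRNA probe was called without 1 array and the block. With all arrays and no replicate block, 0 lncRNA probes were called, with 5432 probes higher and 5928 lower over the arrays, and the block changed no call of an lncRNA probe.

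The counts over all probes depended more on the setting. From 5228 higher and 6095 lower (46.2% of calls higher), median centring gave 7500 and 5594 (57.3%), spike-in scaling 4151 and 3586, the brightest probe of each gene 4174 and 4021, and the mean of a gene's probes 3689 and 4011. Without a filter on dim probes 0 probes were higher and 0 lower, of 55615, with 16093 at an unadjusted p under 0.05, so no other RNA named here was called there. Leaving out 1 array together with the block gave 2740 to 5010 higher and 2542 to 6333 lower, fewer without CPEB2 IgG replicate 2 (2825 and 2677), control replicate 1 (2813 and 2542) or control replicate 2 (2740 and 2828). Tug1 at all 3 probes, Mir22hg, Rmrp and the 2 lowered probes near Mirg lost their call in some of these fits without 1 array and the block, and Tug1 at 1 probe, Mir22hg and both lowered probes with spike-in scaling. That Tug1 probe also lost it without the replicate block, and the lowered plus-strand probe with GC centring. Snhg6, Trappc9, Cdkn1c, Cpeb2 and the 2 raised locus probes lost it only without the filter on dim probes.

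The median of the nuclear-retained probes was 0.16 with median centring, 0.055 with GC centring, −0.41 with the brightest probe of each gene, and −0.30 to −0.13 with 1 experiment. That of Gas5 was −0.64 with GC centring and −0.42 to 0.08 with 1 experiment. The count of lncRNA genes past the thresholds was 1 with GC centring (Meg3) and 0 to 1 with 1 experiment.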
